A study of Mus musculus with 10 samples.

Results

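Complement is described here through 9 genes measured in the gingival epithelium of mice, chosen by gene symbol from the 55414 genes of the deposited table. They are 4 components (C1ra, C1s1, C3 and Cfb), 3 membrane inhibitors (Cd55, Cd46 and Cd59a) and 2 fluid-phase inhibitors (Serping1 and Clu). Polyadenylated RNA was sequenced from epithelium that had been loosened from the gum with the protease Dispase, lifted off and split by side, per the labels' protocols. There were 5 palatal libraries, from the gingiva that faces the palate, and 5 buccal libraries, from the gingiva that faces the cheek. The labels give no strain, age, sex, treatment or genotype for either side, and both sides were handled alike. The series' design text speaks of pooled germ-free and specific-pathogen-free samples, whereas no label of the 10 libraries says which of the 2 applies, and no comparison by microbial status is made. Nothing in the labels ties a library to an animal or says how many animals went into it; each p-value here sets the difference against the library-to-library spread, which could be technical.

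Complement is a cascade of plasma and tissue proteins that marks surfaces for uptake by phagocytes and can punch pores into membranes. The classical route starts when C1q binds antibody or another target and its partner proteases C1r and C1s cut C4 and C2, whereas the alternative route amplifies deposited C3 through factor B. Both converge on C3, the protein whose fragments tag the surface. Host cells protect themselves with membrane proteins that take apart the C3-cleaving enzymes (CD55), help to cut the deposited fragments (CD46, and Crry in rodents) or block the assembly of the pore (CD59), and with soluble inhibitors such as C1 inhibitor and clusterin. Epithelial cells make several of these proteins themselves, and interferon gamma is known to induce C1r, C1s, C3, factor B and C1 inhibitor in various cell types.

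The question was how complement transcripts differ between palatal and buccal gingival epithelium, after a series title that speaks of spatial analysis of the gingiva. The membrane inhibitor genes Cd55 and Cd59a and the fluid-phase inhibitor gene Clu were higher in palatal epithelium, by 1.46 ± 0.14, 0.70 ± 0.13 and 0.33 ± 0.06 on the log2 scale (SE, n = 5 per side). The central component gene C3 was lower, with a log2 fold change of -1.91 ± 0.57. C1ra, C1s1 and the C1 inhibitor gene Serping1 had negative log2 fold changes, and Cd46 a positive one, but none of these 4 passed the test. Cfb had too few counts to be tested. By the quasi-likelihood test of edgeR, adjusted after Benjamini and Hochberg over all 14062 tested genes, 4 of the 8 tested complement genes passed a false discovery rate of 0.05, 3 higher and 1 lower in palatal. Over all tested genes 38.9% passed, 18.7% higher and 20.3% lower. For the same 4 genes the palatal and buccal libraries did not overlap, which held for 28.3% of all tested genes. The median log2 fold change was -0.28 over the 8 genes and 0.01 over all tested genes. Without buccal library 2 alone the median over the 8 genes was 0.10, and without number 2 on both sides it was -0.18. Its sign thus depends on which libraries are kept. With the library numbered 2 left out on both sides, 5 of the 8 passed, 3 higher and 2 lower, and 5307 of all 14089 tested genes. That library had the highest summed interferon-stimulated genes of each side. It also had the highest summed Langerhans and dendritic cell markers of each side.

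**Figure D1:**
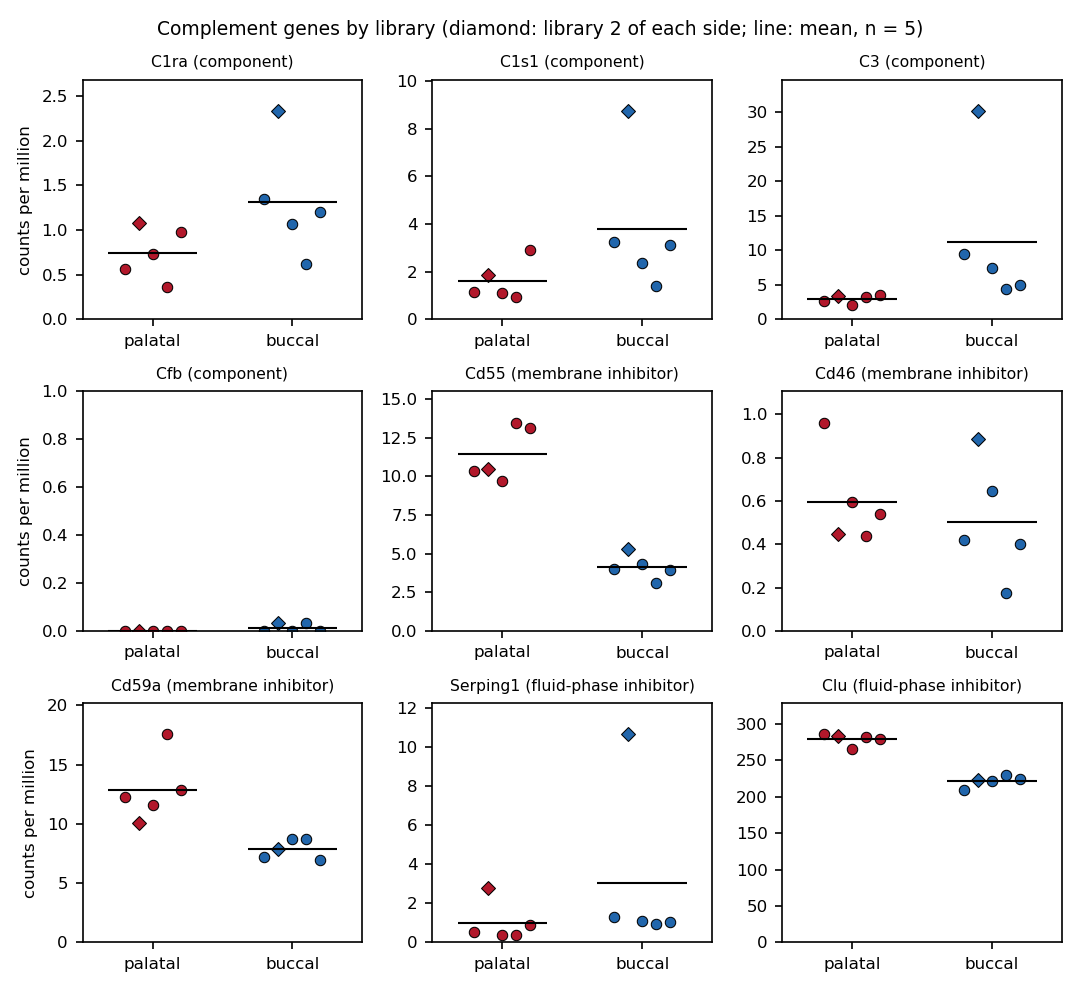
Levels in CPM (y axis, from 0) of the 9 complement genes in each of the 5 palatal (red) and 5 buccal (blue) libraries; diamonds mark library 2 of each side and the line is the mean. Cd55, Cd59a and Clu lie higher in every palatal library than in any buccal one, C3 lies lower, and buccal library 2 stands apart for C3 (30.1 CPM), C1s1 (8.74 CPM) and Serping1 (10.7 CPM).

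Levels are given in CPM, the gene's count over the TMM-scaled library total on the usual CPM scale. To set genes beside each other, CPM was divided by the gene's exonic length in kilobases. On that per-length scale Clu was the most abundant of the 9 at 81.3 CPM per kb in palatal and 64.5 CPM per kb in buccal libraries. Cd59a followed with mean levels of 7.10 CPM per kb in palatal and 4.36 CPM per kb in buccal libraries. The next in palatal libraries was Cd55, with a mean level of 2.35 CPM per kb against 0.852 CPM per kb in buccal libraries. In buccal libraries C3 came after Cd59a instead, at 2.19 CPM per kb, against 0.584 CPM per kb in palatal libraries. The components and soluble regulators C1s1, Serping1 and C1ra lay between 0.249 and 0.511 CPM per kb in palatal libraries and between 0.441 and 1.30 CPM per kb in buccal ones. Buccal library 2 raised the buccal means of Serping1 and C3: it stood at 4.59 CPM per kb for Serping1, with the other 4 at 0.416 to 0.567, and at 5.86 CPM per kb for C3, with the other 4 at 0.853 to 1.83. Cd46 was the lowest gene with counts on both sides, at 0.0784 CPM per kb in palatal and 0.0663 CPM per kb in buccal libraries.

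C3 (ENSMUSG00000024164) encodes the protein on which all complement routes converge. Its level was 2.62, 3.45, 2.09, 3.31 and 3.57 CPM in palatal libraries 1 to 5, against 9.43, 30.1, 7.38, 4.39 and 5.01 CPM in buccal libraries 1 to 5. Every palatal library lay below every buccal one, and buccal library 2 was the highest of all. The highest palatal value was 3.57 CPM and the lowest buccal value 4.39 CPM. The log2 fold change was -1.91 ± 0.57 (SE; edgeR adjusted p = 0.0271). Without buccal library 2 it was -1.13 (edgeR adjusted p = 0.00122), and with number 2 left out on both sides -1.19 (edgeR adjusted p = 0.0023). The call was lost without palatal library 1 (adjusted p = 0.0624), 3 (0.0638), 4 (0.0528) or 5 (0.0506) in the edgeR test, while the log2 fold change stayed between -1.97 and -1.79. In these bulk samples, fewer cells of a type and less RNA per cell cannot be told apart.

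C1ra and C1s1 encode the 2 proteases of the C1 complex. The level of C1ra (ENSMUSG00000055172) was 0.563, 1.09, 0.734, 0.359 and 0.974 CPM in palatal libraries 1 to 5, against 1.35, 2.33, 1.06, 0.622 and 1.20 CPM in buccal libraries 1 to 5. That of C1s1 (ENSMUSG00000038521) was 1.16, 1.85, 1.100, 0.956 and 2.92 CPM in palatal libraries, against 3.25, 8.74, 2.38, 1.38 and 3.14 CPM in buccal libraries. The sides overlapped for both genes, and library 2 was the highest buccal library for each. The log2 fold changes were -0.81 ± 0.33 for C1ra and -1.24 ± 0.50 for C1s1 (SE; edgeR adjusted p = 0.071 and 0.0729), short of the threshold. C1s1 passed without palatal library 5 (adjusted p = 0.0367) and C1ra without palatal library 2 (0.0465), and both passed without buccal library 4 (0.0265 and 0.0238) in the edgeR test. Without buccal library 2 the log2 fold changes were smaller, at -0.68 for C1s1 and -0.51 for C1ra (edgeR adjusted p = 0.119 and 0.202). Without palatal library 1, 3 or 4 the adjusted p of C1s1 was 0.149, 0.147 and 0.147 in the edgeR test. The near copies C1rb and C1s2 held 0 and 7 counts over the 10 libraries; how reads that match both copies were counted is not known, so both levels are uncertain.

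Cfb (ENSMUSG00000090231) encodes factor B, the protease of the alternative route's C3-cleaving enzyme. It had 0 counts over the 5 palatal libraries and 2 counts over the 5 buccal libraries, 1 each in libraries 2 and 4. A count of 0 over the palatal libraries allows a level of up to 0.0197 CPM with a floor of 3 counts, which covers counting error only. In the reference annotation (GENCODE M21, of another build than the authors') 79.5% of the exonic bases of Cfb are also exonic bases of Gm20547, a gene on the same strand that runs through Cfb and its neighbour C2. Gm20547 had 0 counts in all 10 libraries. How reads that fall in more than 1 gene were treated is not given in the sources used here. Of coding genes with at least 95% of their exonic bases shared in this way, 96.7% of 182 held 3 or fewer counts in all, against 24.6% of 20792 genes with under 5% shared. For genes with 70% to under 95% shared, where Cfb falls, the share was 44.4% of 124. A low level of Cfb transcript and reads left uncounted in the shared bases cannot be told apart here; 579 of its exonic bases are not shared.

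Of the 3 membrane inhibitor genes, 2 were higher in palatal epithelium. Cd55 (ENSMUSG00000026399) encodes decay-accelerating factor, which takes apart the C3-cleaving enzymes. Its level was 10.3, 10.5, 9.68, 13.5 and 13.1 CPM in palatal libraries 1 to 5, against 4.02, 5.32, 4.35, 3.08 and 3.91 CPM in buccal libraries 1 to 5. The sides did not overlap, and the lowest palatal library was well above the highest buccal one. The mean was 11.4 ± 1.75 CPM in palatal and 4.14 ± 0.812 CPM in buccal libraries (SD, n = 5 each), a log2 fold change of 1.46 ± 0.14 (SE; edgeR adjusted p = 1.19e-06). Cd55 was also the 1 gene of the 9 that passed a test against a fold of 1.5 (edgeR adjusted p = 4.47e-05). Its near copy Cd55b had 0 counts in every library.

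Cd59a (ENSMUSG00000032679) encodes the main mouse CD59, which stops the assembly of the membrane pore. Its level was 12.3, 10.1, 11.6, 17.6 and 12.9 CPM in palatal libraries 1 to 5, against 7.18, 7.91, 8.76, 8.71 and 6.92 CPM in buccal libraries 1 to 5. The sides did not overlap, and palatal library 4 was the highest. The log2 fold change was 0.70 ± 0.13 (SE; edgeR adjusted p = 6.79e-04). The related gene Cd59b held 44 counts over the palatal and 49 over the buccal libraries and was not tested. Reads that match both Cd59a and Cd59b could have been counted for either or for neither.

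Cd46 (ENSMUSG00000016493) encodes membrane cofactor protein, which in the mouse is known mainly from the testis. Its level was 0.960, 0.447, 0.592, 0.438 and 0.541 CPM in palatal libraries 1 to 5, against 0.418, 0.887, 0.644, 0.173 and 0.399 CPM in buccal libraries 1 to 5. The sides overlapped throughout (log2 fold change 0.25 ± 0.35, SE; edgeR adjusted p = 0.617). These levels rest on 5 to 29 counts per library. Its functional counterpart in rodents, Cr1l (which encodes Crry), stood at 3.50 CPM per kb in palatal and 3.69 CPM per kb in buccal libraries. Its level was 36.2 ± 2.97 CPM in palatal and 38.2 ± 2.42 CPM in buccal libraries (SD, n = 5 each), with a log2 fold change of -0.08 ± 0.07 (SE; edgeR adjusted p = 0.44).

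Promoter sequence is shown for the 3 genes past the threshold that have an entry in the RefSeq promoter table (GRCm38.p6), since they differed between the sides in opposite directions. Of the 9 genes 6 matched the table by symbol. Each line holds the 250 bases before the gene's start, 5′ to 3′ on the gene's strand, and capitals mark a match to one of 3 motifs searched on both strands.
C3 (chr17:57228137-57228386, minus strand): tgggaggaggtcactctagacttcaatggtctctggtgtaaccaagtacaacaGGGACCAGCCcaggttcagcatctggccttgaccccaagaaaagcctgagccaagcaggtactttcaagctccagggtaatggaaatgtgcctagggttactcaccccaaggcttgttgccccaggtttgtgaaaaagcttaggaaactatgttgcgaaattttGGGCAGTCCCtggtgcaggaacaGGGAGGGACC
Cd55 (chr1:130462745-130462994, minus strand): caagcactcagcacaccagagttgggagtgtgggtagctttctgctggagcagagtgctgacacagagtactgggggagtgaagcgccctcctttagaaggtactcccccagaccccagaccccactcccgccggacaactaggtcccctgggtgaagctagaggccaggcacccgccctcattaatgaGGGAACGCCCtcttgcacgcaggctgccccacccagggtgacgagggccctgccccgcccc
Cd59a (chr2:104095551-104095800, plus strand): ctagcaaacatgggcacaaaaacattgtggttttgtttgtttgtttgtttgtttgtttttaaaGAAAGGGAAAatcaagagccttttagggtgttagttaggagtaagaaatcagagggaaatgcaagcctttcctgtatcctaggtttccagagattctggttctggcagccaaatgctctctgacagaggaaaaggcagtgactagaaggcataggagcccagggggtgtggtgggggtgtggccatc
The motifs were an interferon-stimulated response element core (GAAA, any 2 bases, GAAA), a gamma-activated site (TTC, any 3 bases, GAA) and a kappa B core (GGGA, any 4 bases, CC), and no 2 matches in these windows overlapped. C3 held 3 kappa B core matches, starting 197, 33 and 10 bases before its start. Cd55 held 1 kappa B core match, 61 bases before its start, and Cd59a held 1 interferon-stimulated response element core match, 187 bases before its start. Of all 32851 promoters of this length in the table, 17.6% held the kappa B core, 2.98% the interferon-stimulated response element core and 7.02% the gamma-activated site. These matches are descriptions of the letters and were not tested for binding.

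Of the 2 fluid-phase inhibitor genes, Clu was called and Serping1 was not. Serping1 (ENSMUSG00000023224) encodes C1 inhibitor, which blocks C1r and C1s. Its level was 0.530, 2.81, 0.395, 0.398 and 0.902 CPM in palatal libraries 1 to 5, against 1.32, 10.7, 1.096, 0.967 and 1.06 CPM in buccal libraries 1 to 5. Library 2 was by far the highest on each side, and the sides overlapped. The log2 fold change was -1.56 ± 0.94 (SE; edgeR adjusted p = 0.231). With number 2 left out on both sides, Serping1 was lower in palatal, at -1.01 (edgeR adjusted p = 0.011). Without buccal library 2 alone the log2 fold change was -0.13 (adjusted p = 0.868), and without palatal library 2 alone it was -2.43 (adjusted p = 0.0920) in the edgeR test.

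Clu (ENSMUSG00000022037) encodes clusterin, a secreted chaperone that binds the terminal complement complex. Its level was 285.9, 284.1, 266.0, 281.7 and 279.9 CPM in palatal libraries 1 to 5, against 209.0, 223.6, 222.2, 230.1 and 224.2 CPM in buccal libraries 1 to 5. The sides did not overlap, and the spread within each side was small. The log2 fold change was 0.33 ± 0.06 (SE; edgeR adjusted p = 2.57e-04). Markers of gland and simple epithelium were also higher in palatal libraries: 6 of 13 listed were called higher and 0 lower, 4 were not tested, and their summed level ran from 149.8 to 316.3 CPM in palatal and from 55.7 to 116.9 CPM in buccal libraries. None of the 13 was at 0 counts over the 10 libraries. The part of these markers in the levels of Clu, Cd55 and Cd59a was not tested.

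**Figure D2:**
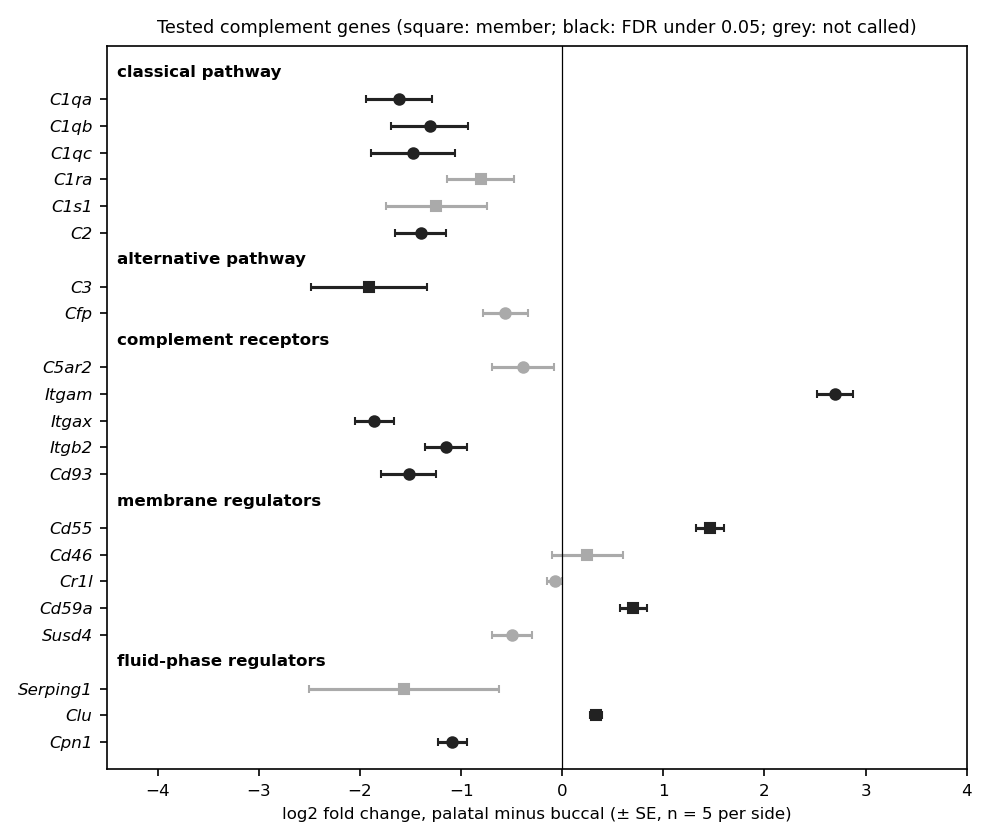
Log2 fold change, palatal minus buccal, with its SE (n = 5 per side) for the 21 tested complement genes grouped by role; squares are the chosen genes, circles the other complement genes, and black marks those past a false discovery rate of 0.05. Cd55 (1.46), Cd59a (0.70) and Clu (0.33) lie to the right of 0 with Itgam (2.70), and every called classical and alternative pathway gene lies to the left.

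Components were set against inhibitors within each library as sums of CPM per kb. The 4 components summed to 1.07, 1.63, 1.00, 1.07 and 1.96 CPM per kb in palatal libraries 1 to 5, against 3.33, 9.44, 2.55, 1.52 and 2.38 CPM per kb in buccal libraries 1 to 5. These sums overlapped between the sides, since palatal library 5 lay above buccal library 4. C3 made up 35.5% to 60.2% of the component sum in palatal and 40.9% to 62.0% in buccal libraries. The 3 membrane inhibitors summed to 9.02, 7.77, 8.46, 12.5 and 9.89 CPM per kb in palatal libraries, against 4.85, 5.58, 5.82, 5.46 and 4.68 CPM per kb in buccal libraries, with no overlap. Cd59a made up most of the membrane inhibitor sum. Its mean was 7.10 of 9.53 CPM per kb in palatal and 4.36 of 5.28 CPM per kb in buccal libraries. The ratio of the component sum to the membrane inhibitor sum was 0.118, 0.209, 0.119, 0.0853 and 0.198 in palatal libraries, against 0.686, 1.69, 0.439, 0.277 and 0.508 in buccal libraries. Every palatal ratio lay below every buccal one, and the ratio was above 1 in buccal library 2 alone. The mean log2 ratio was -2.86 ± 0.55 in palatal and -0.76 ± 0.97 in buccal libraries (SD, n = 5 each), a difference of -2.10, and of -1.72 without buccal library 2. With Cr1l, the gene of the rodent regulator Crry, counted among the membrane inhibitors, a choice made after seeing the data, the ratio was 0.0650 to 0.145 in palatal and 0.165 to 0.986 in buccal libraries, a difference in mean log2 ratio of -1.79. No library then had a ratio above 1, and the sides still did not overlap. Over all 8 listed membrane regulators the summed CPM, which is not per length, overlapped, at 58.26 to 73.4 CPM in palatal and 49.3 to 58.36 CPM in buccal libraries. The ratio of C3 to Cd55 alone, per length, was 0.204 to 0.311 in palatal and 1.21 to 5.34 in buccal libraries. The fluid-phase sum was 93.4% to 99.8% Clu in every library. These sums describe the chosen genes and carry no test.

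**Figure D3:**
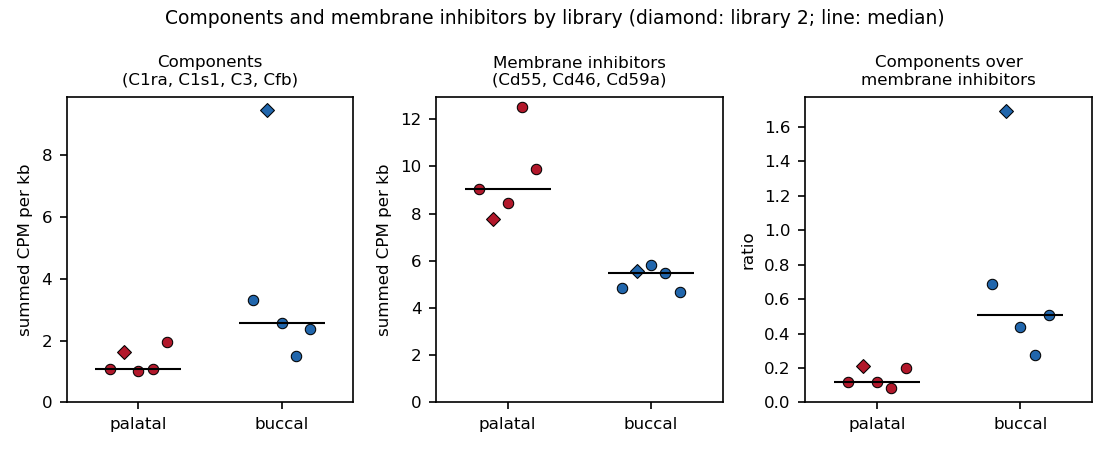
Summed level of the 4 components (left), of the 3 membrane inhibitors (middle) and the ratio of the first to the second (right) in each palatal (red) and buccal (blue) library, in CPM per kb of exonic length for the sums; diamonds mark library 2 and lines are medians. Membrane inhibitor sums run from 7.77 to 12.5 in palatal and from 4.68 to 5.82 in buccal libraries, and the ratio from 0.0853 to 0.209 in palatal and from 0.277 to 1.69 in buccal libraries.

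The wider complement list held 46 other genes, of which 13 had enough counts to be tested. Of these, 1 was higher in palatal and 8 were lower, and 4 did not pass (edgeR, false discovery rate 0.05, against 38.9% of all tested genes called). A gene at these levels can pass the count filter through 1 side alone, so the count over the tested genes is a description. All 3 genes of C1q, the recognition part of C1, were lower, with log2 fold changes of -1.61 ± 0.33 for C1qa, -1.31 ± 0.38 for C1qb and -1.48 ± 0.42 for C1qc (SE; edgeR adjusted p = 0.00169, 0.0157 and 0.0133). The calls of C1qb and C1qc, whose sides overlapped, were lost with no filter on low counts (edgeR adjusted p = 0.0813 and 0.0770). C1qa was 1.44 ± 0.362 CPM in palatal and 4.41 ± 2.29 CPM in buccal libraries (SD, n = 5 each). Buccal libraries 1 and 2 were the highest, at 6.15 and 7.55 CPM, with the other buccal libraries at 2.58 to 3.04 CPM. Macrophages are a known source of C1q, and markers of monocytes and macrophages moved the same way: 5 of 12 listed were called lower and 0 higher, 4 were not tested, none was at 0 counts, and their summed level was 14.3 to 18.7 CPM in palatal and 27.5 to 35.6 CPM in buccal libraries. The part of those cells in the C1q, C3 and Serping1 levels was not tested. C2, the protease that pairs with C4, was lower, at a log2 fold change of -1.40 ± 0.25 (edgeR adjusted p = 4.17e-04), at 0.367 ± 0.0864 CPM in palatal and 0.970 ± 0.245 CPM in buccal libraries; 42.8% of its exonic bases are shared with Gm20547. Properdin (Cfp), which stabilises the alternative route's enzyme, stood at -0.56 ± 0.22 (edgeR adjusted p = 0.0594).

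Among receptors for complement fragments, the integrin gene Itgam was higher in palatal by 2.70 ± 0.18 (SE; edgeR adjusted p = 3.11e-08). Its level was 9.60, 8.58, 11.1, 12.5 and 11.3 CPM in palatal libraries 1 to 5, against 1.19, 2.46, 1.16, 1.49 and 1.84 CPM in buccal libraries 1 to 5. The other genes of complement receptors 3 and 4 were lower, Itgax at -1.86 ± 0.19 and the shared beta chain gene Itgb2 at -1.15 ± 0.21 (edgeR adjusted p = 2.49e-06 and 4.68e-04). Itgam protein is known to need the Itgb2 chain at the cell surface, and 68.7% of its exonic bases are shared with Gm49368, which had 0 counts in all libraries. Cd93, a receptor once assigned to C1q, was lower, at -1.52 ± 0.27 (edgeR adjusted p = 4.11e-04). C5ar2, a C5a receptor gene, stood at -0.39 ± 0.30 (edgeR adjusted p = 0.348). C3ar1, the C3a receptor gene, held 27 counts over the palatal and 74 over the buccal libraries and was not tested. Of the other regulators, Cpn1, the catalytic chain of the enzyme that inactivates C3a and C5a, was lower, at -1.09 ± 0.14 (edgeR adjusted p = 2.49e-05), and Susd4 stood at -0.50 ± 0.20 (adjusted p = 0.0593).

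The remaining routes were barely represented. None of the 9 lectin pathway genes and none of the 7 terminal pathway genes was tested. The terminal pathway genes summed to 0.255 to 0.613 CPM in palatal and 0.133 to 0.322 CPM in buccal libraries. C8a held 44 counts over the palatal and 6 over the buccal libraries, and C7 and C8b had 0 counts on both sides. C4a and C4b, near-identical copies whose reads cannot be divided with certainty, held 42 and 9 counts over the palatal and 37 and 27 over the buccal libraries.

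Buccal library 2 was the highest buccal library for C3, C1s1, C1ra, Serping1, Cd46 and Cd55, and palatal library 2 the highest palatal one for C1ra and Serping1. Each was also the highest of its side for C1qa, C1qb and C1qc. The summed level of 20 interferon-stimulated genes was 271.6 CPM in palatal library 2, where the other 4 had a median of 168.1 CPM, and 983.9 CPM in buccal library 2, where the other 4 had a median of 467.5 CPM. Serping1 in library 2 was 6.05 times the median of the other 4 on the palatal side and 9.88 times on the buccal side. On the palatal side it was 1.64 times for C1s1, 1.67 times for C1ra and 1.16 times for C3, and on the buccal side 3.16 times, 2.06 times and 4.86 times for the same genes. C1qa, C1qb and C1qc stood at 1.46, 1.61 and 2.41 times on the palatal side. On the buccal side they stood at 2.62, 3.16 and 3.04 times. Cd46 stood at 0.788 times on the palatal and 2.17 times on the buccal side. Of the genes called higher in palatal epithelium, Clu, Cd59a and Cd55 stood at 1.01, 0.800 and 0.892 times on the palatal side. On the buccal side they stood at 1.00, 0.997 and 1.34 times. Of the interferon-stimulated genes 16 were called lower in palatal and 0 higher, and their sums did not overlap between the sides. Library 2 of each side also had the highest summed Langerhans and dendritic cell markers. They stood at 92.9 CPM in palatal library 2 and 378.0 CPM in buccal library 2. The part of the interferon-stimulated program and of those cells in the complement levels was not tested.

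**Figure D4:**
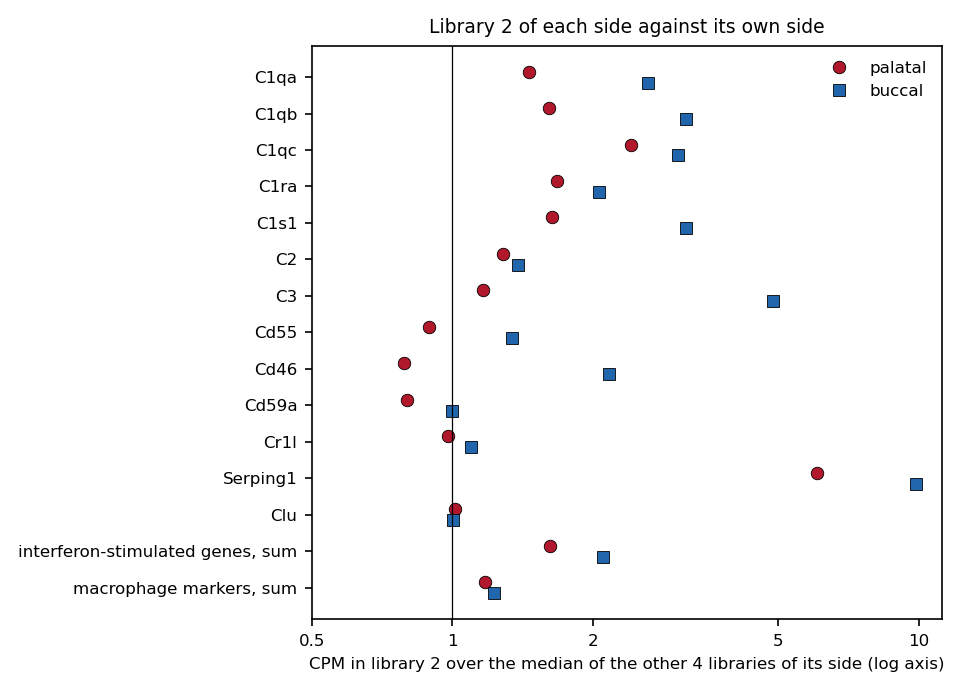
CPM in library 2 divided by the median of the other 4 libraries of its own side (x axis, log scale) for complement genes and for the sums of 20 interferon-stimulated genes and 12 macrophage markers; circles are palatal and squares buccal. Serping1 lies farthest right on both sides (6.05 palatal and 9.88 buccal), and Clu lies at 1.01 palatal and 1.00 buccal.

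The tested genes most like each complement gene were sought over the 10 libraries as the smallest root-mean-square difference of gene-centred log2 CPM, among 11571 genes with a mean of at least 1 CPM. Those nearest to Clu were Ufd1 (0.0397 log2 units) and Tmem164 (0.0406 log2 units), those nearest to Cd59a were Acyp1 (0.119) and H2bc4 (0.137), and those nearest to Cd55 were Cdc7 (0.177) and Inhbb (0.182). C3 was nearest to Sp140 (0.275), and C1s1 to Ifi207 (0.327) and Plek (0.331). C1ra was nearest to Slc16a3 (0.302) and Icam1 (0.317), Serping1 to Cxcl9 (0.375) and Iigp1 (0.401), and Cd46 to Zfp619 (0.321) and Ifi203-ps (0.321). The distances are smallest for the genes with the least spread, so they rank genes within each list and not between lists.

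Total counts ran from 25868777 to 35583168 in palatal and from 29317011 to 37234192 in buccal libraries. All 12 listed keratinocyte markers were detected, with a median summed level of 132366 CPM in palatal and 143065 CPM in buccal libraries. Langerhans and dendritic cell markers were lower in palatal (8 of 10 listed lower, 0 higher, sums of 66.4 to 92.9 CPM in palatal and 213.8 to 378.0 CPM in buccal libraries). Of 12 T and innate lymphoid cell markers, 9 were lower and 1 higher. Their sums overlapped, at 22.3 to 31.8 CPM in palatal and 24.1 to 32.3 CPM in buccal libraries. The median log2 fold change of the 10 tested was -2.02, so the sums do not show how the single genes moved. Thy1 is in both that list and the fibroblast list, and so counts in both sums. Fibroblast and matrix markers were higher for 4 of 12 and lower for 0 (sums of 109.9 to 121.3 CPM in palatal and 32.1 to 38.5 CPM in buccal libraries). Of the other fibroblast and matrix markers 4 were not called and 4 not tested. Their median log2 fold change over the 8 tested was 0.32, less than the sums show. The part of these cell types in the complement levels was not tested. Of the neutrophil list 1 of 10 was tested and was lower, and of the mast cell list 1 of 7 was tested and was higher. The endothelial list had 1 higher and 1 lower of 3 tested, while the melanocyte and red blood cell lists had 0 called of 1 and of 5 tested in edgeR.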

How the data were processed

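Polyadenylated RNA of 10 mouse gingival epithelium libraries (5 palatal, 5 buccal) was, per the labels' protocols, made into stranded libraries and read single-end. Per the submitters' processing notes, which name the build GRCm39 and, without saying what each did, HTSeq 2.01, TopHat2 2.1.1, DESeq2 1.36.0 and cutadapt 2.10, the tools are known but not their settings. The annotation, the strand setting and the handling of reads in overlapping genes are not given. Raw counts per gene were deposited, per the file headers. A second set of columns, normalized by the authors with DESeq2 per the file headers, is a signal: each count over 1 size factor per library. Of 55414 genes, 6250 were blank and left out, and 0 columns belonged to other samples.

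Genes were kept by edgeR's filterByExpr (minimum count 10), which left 14062, and scaled by TMM. The sides were compared with the quasi-likelihood F-test of edgeR (robust dispersion, two-sided), adjusted by Benjamini-Hochberg over all tested genes at 0.05 (edgeR 4.0.16, limma 3.58.1, DESeq2 1.42.0, R 4.3.3). Fold changes are log2, palatal minus buccal, and standard errors were taken as the absolute log2 fold change over root F. For log2 CPM the prior count was 2. The script was tested on simulated data with known changes. Exonic lengths and shared exonic bases came from GENCODE M21, whose build differs from the authors', so no gene coordinates are given from it. The promoter windows carry coordinates of GRCm38.p6, which also differs from the authors' build. Alternatives were other scalings and filters, DESeq2, limma-voom, limma-trend on the deposited values (pseudocount 1, log2 scale), a block for the replicate number, fits without single libraries or without number 2 on both sides, a stricter FDR (0.01) and testing beyond a 1.5-fold change. The genes, the lists and the alternatives were chosen with earlier results of these data known. All 9 genes are named, with every other complement gene past the threshold and the 2 most alike genes of each, apart from 1 that is not reported here; other genes named below the threshold were picked for their role. The floor for Cfb covers counting error alone: the reads carry no molecular identifiers and need not be separate molecules.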

Additional observations from a re-analysis of the deposited data

Results flagged for a closer look

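Within the 5 libraries of a side, 22 sets of values were checked (8 tested genes and 3 sums on each side). Of these, 5 held a library farther from the rest than Dixon's 95% limit of 0.71 allows. In all 5 sets it was library 2, on the high side. The limit assumes normally distributed values. The values here were untransformed CPM, and genes in 1 library can vary together, so no rate by chance is given. Serping1 stood at 2.81 CPM in palatal library 2, with the other palatal libraries at 0.395 to 0.902 CPM. It stood at 10.7 CPM in buccal library 2, with the other buccal libraries at 0.967 to 1.32 CPM. In buccal library 2, C3 was 30.1 CPM against 4.39 to 9.43 CPM in the other 4, and C1s1 was 8.74 CPM against 1.38 to 3.25 CPM. The component sum of that library was 9.44 CPM per kb against 1.52 to 3.33 CPM per kb in the other 4. The sums share their genes, so these are not 5 separate signs.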

How the results depend on the processing

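Cd55, Cd59a and Clu kept their direction and their call under every alternative, except that Cd59a and Clu did not pass a test against a fold of 1.5 (edgeR adjusted p = 0.456 and 1). That test left 1491 genes called overall (675 higher, 816 lower), and 1 of the 9 complement genes, 1 higher and 0 lower. The count of complement genes lower in palatal was 0 at an FDR of 0.01 and with no filter on low counts (C3 adjusted p = 0.0579, edgeR), where 2 other complement genes were higher. It was 2 with DESeq2 (C3 and C1s1) and with number 2 left out on both sides (C3 and Serping1). Of all tested genes, 2017 of 14062 were lower at an FDR of 0.01 and 2856 of 29221 with no filter. With DESeq2 2937 of 14062 were lower, and with number 2 left out on both sides 2769 of 14089. Leaving out 1 library at a time gave 3 to 6 genes past the threshold, 0 to 3 of them lower and 3 higher in every such fit, with 9 to 10 of the other complement genes (1 higher, 8 to 9 lower) and 4916 to 5399 of all genes (2348 to 2613 higher, 2516 to 2817 lower). The component to membrane inhibitor difference ran from -2.37 to -1.72 in log2 units in the same fits.

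Correlations of deviations from the side means, across genes, ran from -0.02 to 0.33 over the 5 pairs of same-numbered libraries. Between differently numbered libraries they ran from -0.32 to 0.23. The ranges overlap, so this check cannot decide whether the numbers are pairs. The labels tie no library to an animal, and the main fit does not take the numbers as pairs. With the replicate block, 7 of the 8 tested genes passed, 3 higher and 4 lower, the added calls being C1ra, C1s1 and Serping1. In that fit 5518 of all 14062 tested genes passed, 2643 higher and 2875 lower. Cd46 was not tested at 1 CPM in 5 libraries. The cause of these shifts was not tested. The log2 fold changes of the 8 tested genes reversed under 0 alternatives. Cd46 rests on 5 to 29 counts per library, the fewest of the 8.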
